A study of Mus musculus with 6 samples.

Results

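Immunity-related GTPases (IRGs) are large guanine-nucleotide-binding proteins that mouse cells make in response to interferon, and Gvin1 encodes an interferon-inducible very large GTPase. Described here are the 8 genes Irgm1, Irgm2, Igtp, Iigp1, Tgtp1, Tgtp2, Gm12250 and Gvin1, taken by name from the 18057 genes of the deposited table. They were singled out because their levels in these libraries were lower in one genotype than in the other. The difference between genotypes is therefore given for them as a description, without a test, and supports nothing by itself. RNA came from group 2 innate lymphoid cells (ILC2s), tissue lymphocytes that answer alarmins such as IL-33 with type 2 cytokines, isolated from the lungs of mice after 3 intranasal injections of 1 µg IL-33. A culture of 24 h followed, in which IL-2 and IL-7 were each present at 10 ng/mL. The control group (genotype Il7rcre, titled WT) has 3 libraries, and so does the Piezo1_KO group (genotype Il7rcrePiezo1flx). By these labels both genotypes carry the Il7r-Cre driver, which is active in lymphoid cells at large and not in ILC2s alone, and the Piezo1_KO mice also have a floxed allele of Piezo1, the gene of a mechanically gated cation channel. The comparison asks what loss of that channel changes in activated lung ILC2s. No label says that replicates came from separate animals, so errors and p-values measure only how far these libraries differ, which may be technical.

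In mouse cells the IRG proteins fall into classes named after their nucleotide-binding motif. The GMS proteins, encoded by Irgm1, Irgm2 and Igtp (also called Irgm3), sit on the cell's own membranes and hold the other class inactive there. The GKS proteins, encoded by Iigp1 (Irga6), Tgtp1 and Tgtp2 (both Irgb6) and Gm12250 (Irgb10), are effectors that load onto and break the vacuoles of intracellular parasites and bacteria. Their promoters typically carry interferon-responsive sequence elements, and interferon gamma is a strong inducer of them.

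Promoters are shown so that the interferon-responsive elements of these genes can be compared. RefSeq windows on build GRCm38.p6, the assembly of mm10, were found for 6 of the 8 genes, all on chromosome 11. The lines give the 150 bases before each annotated start, 5′ to 3′ on the gene's strand. The RefSeq starts of Irgm1, Irgm2 and Tgtp1 lie inside the GENCODE spans given further on, those of Tgtp2 and Gm12250 lie before them, and that of Igtp is the same. Capitals mark matches to the core of the interferon-stimulated response element (ISRE), searched as GAAA, any 2 bases and GAAA again, and to the gamma-activated site (GAS), TTCNNNGAA. Both strands were searched, and overlapping matches share their capitals.
Igtp, chr11:58199406-58199555, plus strand: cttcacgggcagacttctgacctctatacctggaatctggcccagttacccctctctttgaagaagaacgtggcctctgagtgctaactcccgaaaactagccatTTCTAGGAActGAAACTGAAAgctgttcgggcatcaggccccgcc
Irgm2, chr11:58214827-58214976, plus strand: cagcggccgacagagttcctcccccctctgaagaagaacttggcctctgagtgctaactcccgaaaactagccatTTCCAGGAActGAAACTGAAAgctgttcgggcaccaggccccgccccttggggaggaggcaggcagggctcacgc
Tgtp1, chr11:48992247-48992396, minus strand: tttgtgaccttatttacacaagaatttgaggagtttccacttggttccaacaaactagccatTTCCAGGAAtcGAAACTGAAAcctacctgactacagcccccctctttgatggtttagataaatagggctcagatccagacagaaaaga
Tgtp2, chr11:49064213-49064362, minus strand: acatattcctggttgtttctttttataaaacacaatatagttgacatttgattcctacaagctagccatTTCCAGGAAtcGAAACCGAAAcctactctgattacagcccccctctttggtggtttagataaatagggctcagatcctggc
Gm12250, chr11:58183693-58183842, plus strand: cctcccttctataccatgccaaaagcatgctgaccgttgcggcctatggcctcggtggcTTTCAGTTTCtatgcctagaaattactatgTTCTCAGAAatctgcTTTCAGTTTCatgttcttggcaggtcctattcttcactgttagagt
Irgm1, chr11:48871421-48871570, minus strand: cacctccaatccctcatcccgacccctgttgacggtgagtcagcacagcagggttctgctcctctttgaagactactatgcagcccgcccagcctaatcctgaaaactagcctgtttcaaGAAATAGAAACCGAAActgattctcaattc
All 6 windows held an ISRE core, and all but that of Irgm1 also held a GAS match. In windows of the same kind, 300 bases with 50 after the start, 3.44% of 32851 held the ISRE core, 8.30% the GAS and 0.454% both. In Igtp, Irgm2, Tgtp1 and Tgtp2 the GAS lay directly before the ISRE core, with a pair of bases between them. That arrangement was defined after these windows had been read. It occurred in 5 of the 32851 windows (0.0152%). The fifth belongs to Gm12185, a predicted gene that overlaps Tgtp1 on the same strand. Matches are letters in a window and were not tested as binding sites.

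Before the genes themselves, the libraries and labels were checked. Library totals lay between 13059046 and 33459904 estimated counts. Piezo1, the targeted gene, was at 247, 278 and 160 CPM (counts scaled to a common library size with TMM factors) in control libraries 1, 2 and 3, against 150, 109 and 122 CPM in the 3 Piezo1_KO libraries. The groups did not overlap, and the difference missed the threshold used throughout, an adjusted p of 0.05 in edgeR's quasi-likelihood test (log2 fold change −0.85 ± 0.21 SE, adjusted p = 0.112). Counts of the whole gene do not resolve the floxed exons, so they are no check of the recombination itself. All 14 ILC2 markers were in the table, with a summed level of 11584 to 12552 CPM in control and 13099 to 13974 CPM in Piezo1_KO. Of these, 2 were called lower, Il7r and Icos. Il7r is also the gene of the Cre driver. It went from a mean of 66.8 CPM in control to 32.8 CPM in Piezo1_KO (adjusted p = 0.0072, edgeR), and the cause was not tested. Of the macrophage and monocyte markers 7 of 12 were in the table, summing to 4.58 to 11.6 CPM in control and 4.18 to 7.15 CPM in Piezo1_KO.

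Across the group, every gene was lower in Piezo1_KO, and no control library overlapped a Piezo1_KO library for any of the 8. The drops were unequal. Gvin1 and Iigp1 came close to 0, Igtp, Irgm2, Tgtp1 and Gm12250 stood at 47.6% to 56.6% of the control mean, and Irgm1 and Tgtp2 kept 77.3% and 89.9% of it. All 8 genes passed the filter on low counts, Iigp1 only through the control libraries. In the fit across 14149 genes, 5 of the 8 were called lower, and 0.509% of all genes tested were called in that direction. The count of 5 became 3 without control replicate 1 and without each of Piezo1_KO replicates 1, 2 and 3. A lower level without overlap between the groups, seen for all 8, held for 10.5% of all genes tested. Since these genes were chosen from this contrast, nothing is read from either count. In bulk RNA, fewer cells carrying a transcript and less of it per cell cannot be told apart.

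**Figure D1:**
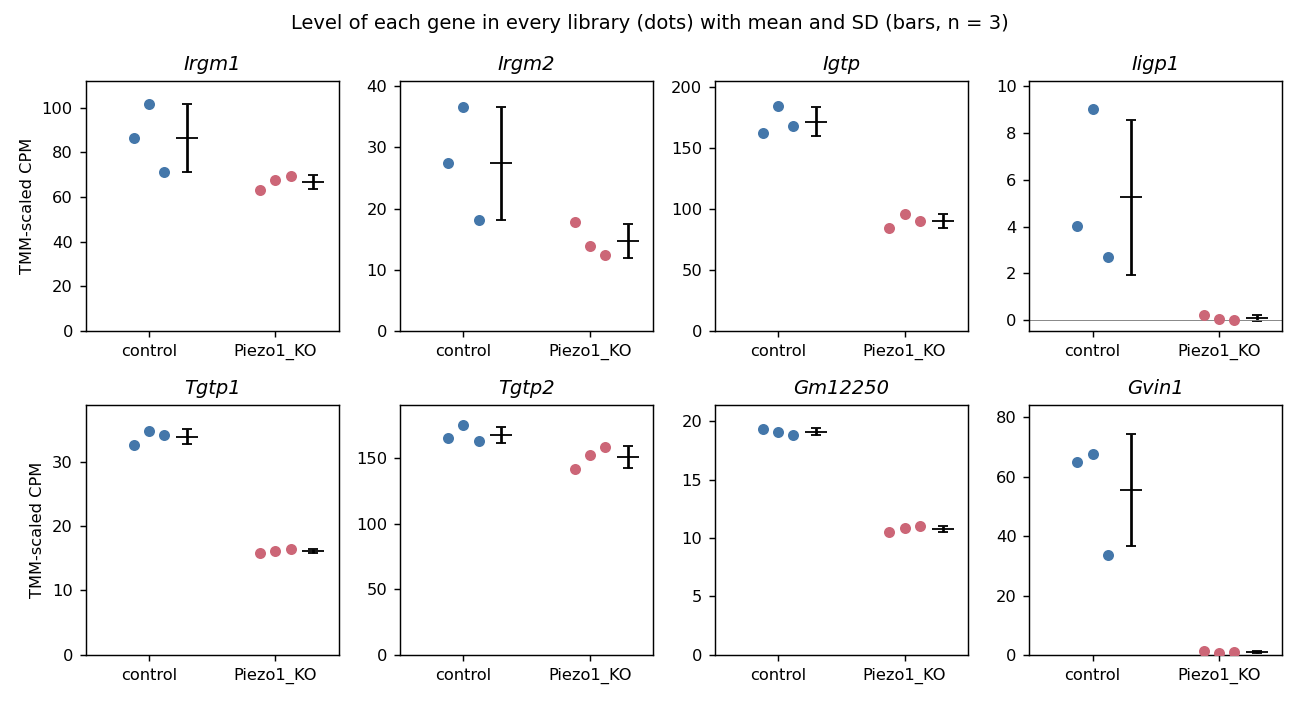
TMM-scaled CPM (y axis, each panel with its own scale) of the 8 genes in the 3 control and 3 Piezo1_KO libraries (dots, replicates 1 to 3 from left to right), with the mean and SD of each group (bars). In every panel the lowest control dot lies above the highest Piezo1_KO dot, with narrow gaps for Irgm1, Irgm2 and Tgtp2 and wide ones for Iigp1 and Gvin1.

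The regulators of the GMS class are described first. Igtp (chromosome 11, 58199556 to 58207591, plus strand) encodes a regulator of the endoplasmic reticulum and of lipid droplets. Control replicates 1, 2 and 3 had 162, 185 and 168 CPM, and the Piezo1_KO replicates had 84.7, 95.7 and 90.5 CPM. Even the lowest control library stood well clear of the highest Piezo1_KO library, and the mean fell from 172 ± 11.7 to 90.3 ± 5.54 CPM (SD, n = 3). The fitted change on the log2 scale was −0.93 ± 0.10 (SE, as for every log2 fold change here). Irgm2 (58199618 to 58222782, plus strand) overlaps Igtp in the annotation, and 11.8% of the 50-base words of Igtp transcripts also occur in those of Irgm2. Its level was 27.4, 36.5 and 18.1 CPM in the control replicates and 17.9, 13.9 and 12.5 CPM in the Piezo1_KO replicates. Here the groups nearly touched, control replicate 3 lying just above Piezo1_KO replicate 1. The log2 fold change of −0.90 ± 0.25 moved to −0.65 without control replicate 2 and to −1.12 without control replicate 3.

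Irgm1 (chromosome 11, 48861968 to 48871683, minus strand) encodes the regulator whose loss is known to leave mice highly prone to infection. Control replicates had 86.5, 101.7 and 71.2 CPM and Piezo1_KO replicates 63.2, 67.9 and 69.4 CPM. Control replicate 3 was close to the Piezo1_KO range, and the gap between groups was small beside the spread of the controls (SD 15.2 CPM). The log2 fold change was −0.37 ± 0.13, the smallest of the 3 regulators, and lay at −0.26 without control replicate 2 and −0.50 without control replicate 3. Together the regulators summed to 286 ± 33.6 CPM (control) and 172 ± 5.87 CPM (Piezo1_KO, SD, n = 3 each).

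Among the effectors, Iigp1 showed the lowest level and the widest relative gap. This gene, on chromosome 18, encodes Irga6, a well studied effector against Toxoplasma. The 3 controls had 80, 302 and 36 counts and the 3 Piezo1_KO libraries 5, 1 and 0 counts, or 4.02, 9.02 and 2.70 CPM against 0.211, 0.0345 and 0 CPM. A count of 0 in the last of these libraries allows up to 0.128 CPM (3 counts, counting error only). The controls spread widely, by a coefficient of variation of 63.5%, and the whole Piezo1_KO group rests on 6 counts against 418 in control. The ratio of summed counts, control over Piezo1_KO and corrected for library size, was 79.4 with a 95% exact interval of 36.2 to 218 that covers counting error only. The fitted log2 fold change of −5.97 ± 0.84 depends on the prior count at such levels, and it ranged from −7.78 to −5.33 when single libraries were left out.

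Tgtp1 (chromosome 11, 48985327 to 48994172, minus strand) and Tgtp2 (49057194 to 49064206, minus strand) encode nearly the same protein, Irgb6, which binds the parasite vacuole early. Tgtp1 was at 32.7, 34.8 and 34.2 CPM in control, compared with 15.8, 16.1 and 16.4 CPM in Piezo1_KO. The libraries of each group were tightly packed and the gap was many times their spread, giving a log2 fold change of −1.07 ± 0.10. Tgtp2 was at 165, 175 and 163 CPM in control and stood at 142, 153 and 158 CPM in Piezo1_KO. For this copy the gap was narrow (log2 fold change −0.15 ± 0.09).

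The unequal change of the Tgtp copies showed in their proportions. Tgtp1 made up 16.5%, 16.6% and 17.3% of the pair's level in the controls, but 10.04%, 9.53% and 9.41% of it in the Piezo1_KO libraries. How reads were divided between the copies is uncertain. Of the 3122 different 50-base words in the annotated Tgtp1 transcripts, 79.4% also occur in Tgtp2 transcripts, and the estimated counts of both genes were not whole in any library. Summed to a single gene before the fit, the pair had a log2 fold change of −0.27 ± 0.09, and its mean level was 202 ± 7.05 CPM (control) and 167 ± 8.84 CPM (Piezo1_KO, SD, n = 3 each).

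Gm12250 (chromosome 11, 58187739 to 58189012, plus strand), which encodes the effector Irgb10 although GENCODE lists it as a processed pseudogene, varied little within each group. The control values were 19.4, 19.1 and 18.8 CPM, and the Piezo1_KO values 10.5, 10.9 and 11.02 CPM. Its values within a group differed by a coefficient of variation of 1.46% in control and 2.36% in Piezo1_KO, and the log2 fold change was −0.82 ± 0.12. None of its 50-base words occurred in a transcript of another gene, and its counts were whole in all 6 libraries (within 1e-09). The 4 effectors summed to 226 ± 10.4 CPM in control and 178 ± 8.98 CPM in Piezo1_KO.

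Gvin1 (chromosome 7, 106156556 to 106215326, minus strand) is outside the IRG family proper. Its protein is far larger, and its function is less well known. Control replicates 1, 2 and 3 had 64.8, 67.7 and 33.7 CPM, whereas the Piezo1_KO libraries had 1.27, 0.760 and 1.11 CPM. All 3 Piezo1_KO libraries held only 22.4 to 29.9 estimated counts, and control replicate 3 lay well below the other 2 controls. The log2 fold change was −5.74 ± 0.34 and stayed between −6.00 and −5.54 in 13 alternative fits. All of these used the counts as deposited, so none changed how shared reads were divided among genes.

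The size of the Gvin1 difference changed when its estimated counts were pooled with those of its closest copy, Gm4070. How reads were divided between these genes is uncertain, and the estimated counts of both were not whole in any library. Of 9005 different 50-base words in the annotated Gvin1 transcripts, 98.3% also occur in transcripts of Gm4070, a neighbouring gene of the same family. Gm4070 was at 42.6, 37.3 and 29.5 CPM in control and 27.2, 28.1 and 28.96 CPM in Piezo1_KO. The 2 groups thus came close for Gm4070 and lay far apart for Gvin1, whose share of the pair's counts was 60.4%, 64.5% and 53.2% in control and 4.44%, 2.68% and 3.68% in Piezo1_KO. Summed before the fit, the pair had a log2 fold change of −1.66 ± 0.19, from 91.9 ± 24.9 to 29.1 ± 0.840 CPM (SD, n = 3). Gm1966, another gene of the cluster, was at 41.5, 34.9 and 22.9 CPM in control and 19.9, 12.7 and 16.3 CPM in Piezo1_KO (log2 fold change −1.03 ± 0.24, adjusted p = 0.0967, edgeR). Gm8995, at 140 ± 30.1 CPM (control) and 137 ± 16.5 CPM (Piezo1_KO), overlapped between groups (log2 fold change −0.03 ± 0.17).

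**Figure D2:**
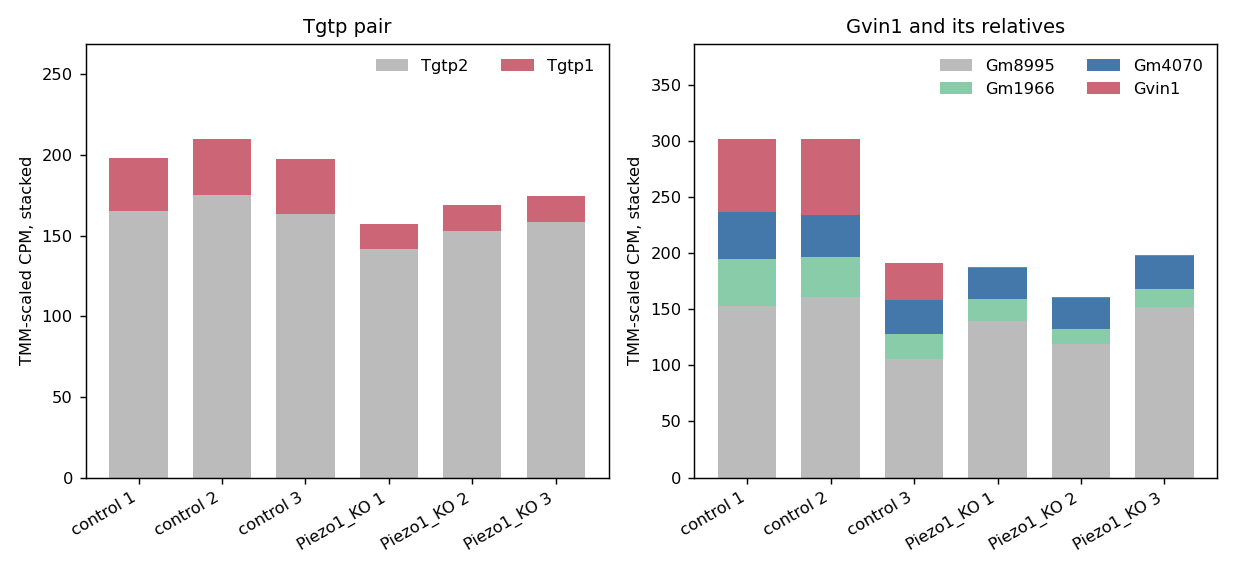
TMM-scaled CPM stacked by gene (y axis) in each library for the Tgtp pair (left) and for Gvin1 with 3 related genes (right). Tgtp1 takes a smaller share of the pair in the 3 Piezo1_KO libraries, and the Gvin1 segment, 33.7 to 67.7 CPM in control, is too thin to see there, while the Gm8995 segment spans similar heights in both groups.

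As a family sum, the 8 genes reached 562, 629 and 511 CPM in the controls, against 335, 358 and 359 CPM in the Piezo1_KO libraries. The groups were well apart, and the mean went from 567 ± 59.3 to 351 ± 13.6 CPM (SD, n = 3), or 61.9% of control, a log2 ratio of −0.69. Igtp and Tgtp2 supplied most of the sum. Tgtp2 made up 29.8 ± 2.10% of it in control and 43.01 ± 0.955% in Piezo1_KO, whereas Gvin1 went from 9.63 ± 2.67% to 0.300 ± 0.0807% (SD, n = 3). Without Gvin1 the log2 ratio was −0.55, and without the Tgtp pair −0.99.

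**Figure D3:**
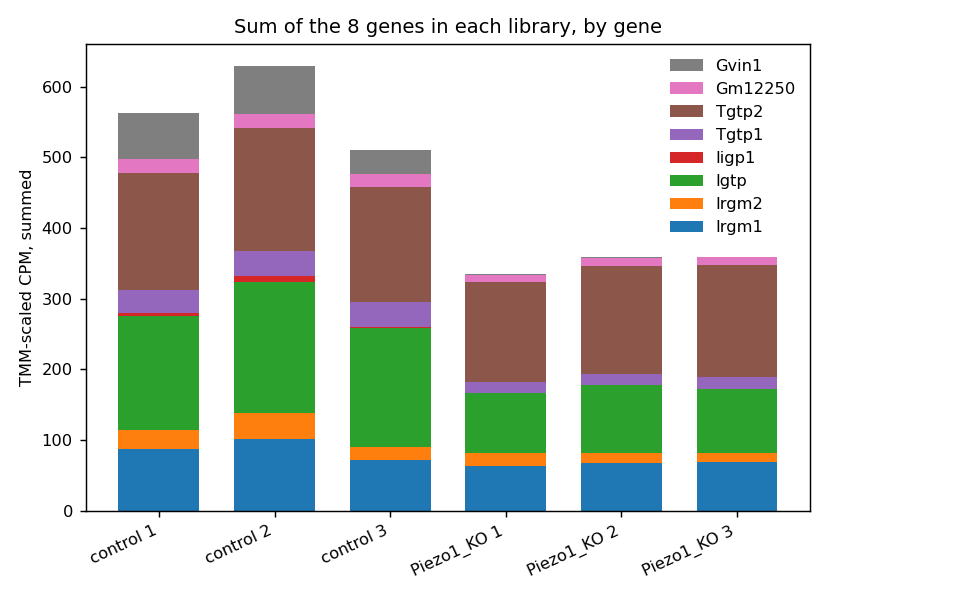
Sum of the 8 genes in TMM-scaled CPM (y axis) for each library, with 1 colour per gene. The 3 control bars reach 511 to 629 CPM and the 3 Piezo1_KO bars 335 to 359 CPM; the Gvin1 segment is visible only in control.

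Levels per kilobase of annotated exon allow the genes to be ranked against each other. In control the order of mean levels was Igtp (84.9 CPM per kb), Tgtp2 (57.2), Gm12250 (15.0), Irgm1 (14.9), Tgtp1 (10.6), Irgm2 (7.41), Gvin1 (6.15) and Iigp1 (0.901). Gm12250 lay within the range of Irgm1, and the ranges of Irgm2 and Gvin1 overlapped, so neither pair differed beyond its spread. In Piezo1_KO the first place passed to Tgtp2 (51.4 CPM per kb), ahead of Igtp (44.7). The ranges of these genes did not overlap in either group. The lowest places there were held by Gvin1 (0.116) and Iigp1 (0.0141). Exon lengths are those of GENCODE M21 and range from 1274 bases for Gm12250 to 9005 for Gvin1, and the transcripts used in these cells were not determined.

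The order of the control libraries was also compared between genes. Control replicate 2 was the highest of all 6 libraries for 7 of the 8 genes, the exception being Gm12250. Control replicate 3 was the lowest control for 6 of them (not Igtp or Tgtp1). As no groups overlapped, the highest library had to be a control. Piezo1 had the same order (278 and 160 CPM), and these libraries also had the highest and lowest totals. The share of all genes with this order is not given, so it is not read as a trait of the 8. Ifng, which encodes interferon gamma, had 24 counts in control replicate 2, 1 in control replicate 1 and 0 in the other 4 libraries, and was too low to be tested. The count of 0 in the Piezo1_KO group allows up to 0.0395 CPM (3 counts over the group, counting error only). Its part in the levels of these genes was not tested. Without control replicate 2 the log2 ratio of the family sum was −0.61.

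Other IRG and Gvin genes were looked at through a list of 18 names, of which 11 were in the table and 7 were tested. None was called by edgeR, where 1.51% of all genes tested were called in either direction. DESeq2 and limma-voom called 2 each, against 594 and 439 of all 14149 genes tested. An unadjusted p under 0.05 (edgeR) was found for 3 of the 7. The share of all genes at that level is not given, so nothing is read from it. The median log2 fold change was −0.15, against 0.018 for all genes tested. Ifi47, the GKS effector Irgd, had 149, 164 and 147 CPM in control and 101.1, 117 and 111 CPM in Piezo1_KO, without overlap (log2 fold change −0.48 ± 0.10, adjusted p = 0.0566, edgeR). Its RefSeq window, unlike those of the 6 genes above, held neither motif. The tandem IRG genes 9930111J21Rik1 and 9930111J21Rik2, which flank Tgtp1, overlapped between groups, with log2 fold changes of 0.31 ± 0.21 (adjusted p = 0.594) and 0.25 ± 0.13 (adjusted p = 0.478).

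The guanylate-binding proteins (GBPs) are the partner GTPases that join IRGs on pathogen vacuoles. Of 9 GBP genes tested, 5 fell, 0 rose and 4 did not pass, with a median log2 fold change of −0.93. In the same fit 1.51% of all genes were called in either direction. Gbp6 had 181, 197 and 145 CPM in control and 38.3, 40.7 and 44.03 CPM in Piezo1_KO, and fell by 2.09 ± 0.13 on the log2 scale (edgeR, adjusted p = 0.000333). Gbp4 fell by 0.93 ± 0.11 (adjusted p = 0.0092) and Gbp7 by 0.67 ± 0.10 (adjusted p = 0.0172). Only Gbp6 was called in all 12 alternative fits. The count of 5 dropped to 1 without control replicate 1 and without each of the Piezo1_KO replicates 1, 2 and 3.

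Of 20 tested genes of interferon reception and signalling, 1 rose, 2 fell and 17 did not pass, where 1.51% of all genes tested were called in either direction. The median log2 fold change was −0.12. Irf8, a transcription factor that acts at ISRE-like elements in myeloid and lymphoid cells, was at 55.3, 57.9 and 54.9 CPM in control and 27.4, 25.2 and 24.2 CPM in Piezo1_KO. It fell by 1.13 ± 0.10 on the log2 scale (adjusted p = 0.00158, edgeR) and was called in all 12 alternative fits. Socs3, a feedback inhibitor of cytokine receptors, rose from 134 ± 9.11 CPM to a mean of 251 ± 29.4 CPM (SD, n = 3 each; edgeR adjusted p = 0.01002). The Socs3 call was lost without control replicate 1 and Piezo1_KO replicates 1 and 2 (adjusted p up to 0.0847 over the 12 alternatives). Irf1, a main driver of IRG transcription, had a log2 fold change of −0.38 ± 0.16 with overlapping groups (adjusted p = 0.362, edgeR). Ifngr1, the ligand-binding receptor chain, had one of −0.01 ± 0.10 (adjusted p = 0.983). Irf9 did not pass either but was lower without overlap (log2 fold change −0.70 ± 0.14, adjusted p = 0.0546, edgeR). Over the list, 14 genes had a negative and 6 a positive log2 fold change.

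Among 20 tested interferon-inducible genes outside the GTPases, 1 fell, 0 rose and 19 did not pass. Across all genes tested, 1.51% were called in either direction. All 20 had a negative log2 fold change (median −0.38, against 6651 negative of 14149 tested genes). The called gene was Zbp1, a sensor of Z-form nucleic acid, which went from a mean of 43.6 ± 2.85 CPM to 23.8 ± 3.86 CPM (SD, n = 3 each; edgeR adjusted p = 0.0243), and that call was lost without control replicate 1 or any of the 3 Piezo1_KO replicates (adjusted p up to 0.123). The ATG8 conjugation machinery directs IRG and GBP proteins to vacuoles. Of 21 tested genes of this machinery and of vacuole targeting, 1 rose, 0 fell and 20 did not pass. The share called over all genes was the same 1.51%, and the list had a median log2 fold change of 0.06. The riser was Optn, the autophagy receptor optineurin, from 2.31 ± 0.0635 to 5.45 ± 0.532 CPM (adjusted p = 0.0371), and it passed in 6 of 12 alternatives, failing in 5 of the 6 fits that left out a library (all but control replicate 2).

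**Figure D4:**
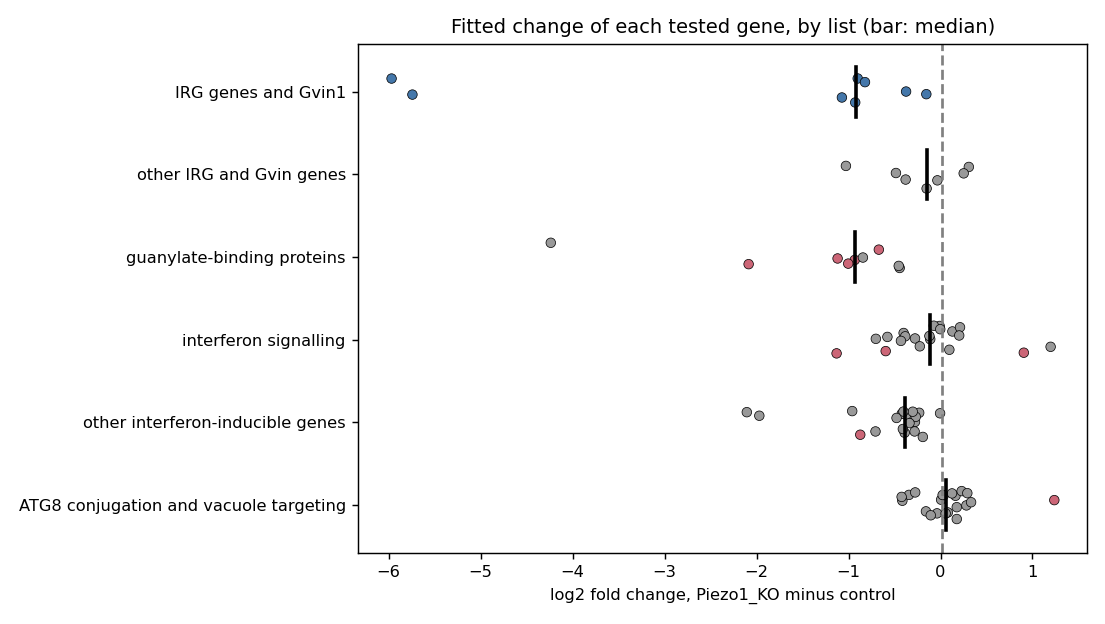
Fitted log2 fold change (x axis, Piezo1_KO minus control) of each tested gene in the 8-gene group (blue, no calls shown) and in 5 related lists (red: adjusted p below 0.05; grey: not called), with the list median (black bar) and the median of all genes tested (dashed line, 0.018). The 8 genes and the 9 guanylate-binding protein genes have medians of −0.91 and −0.93, and the other 4 lists lie between −0.38 and 0.06.

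The neighbourhood of each gene was examined for shared change. Among the 10 nearest tested genes on each side of Gvin1, edgeR called 0 of 20. DESeq2 and limma-voom called 1 each, and 3 had an unadjusted p under 0.05 in edgeR. Their start sites lay from −575 to 3488 kb of that of Gvin1. The 45 genes around the chromosome 11 members, these left out, gave 0 calls as well (7 at an unadjusted p under 0.05, 1 each by the other tools). They lay from −2718 to 1137 kb of the member they surround. In edgeR 1.51% of all genes tested were called, so 0 calls among so few genes do not show that a neighbourhood was unchanged. The share of all tested genes at an unadjusted p under 0.05 is not given, so nothing is read from the unadjusted counts. Gm18853, a predicted gene that lies inside Gvin1 on the same strand and is named after its values were seen, was at 1.61, 1.25 and 2.02 CPM in control and 0.423, 0 and 0.427 CPM in Piezo1_KO (log2 fold change −2.53 ± 0.83, adjusted p = 0.233). Reads of overlapping genes on the same strand cannot be assigned with certainty.

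**Figure D5:**
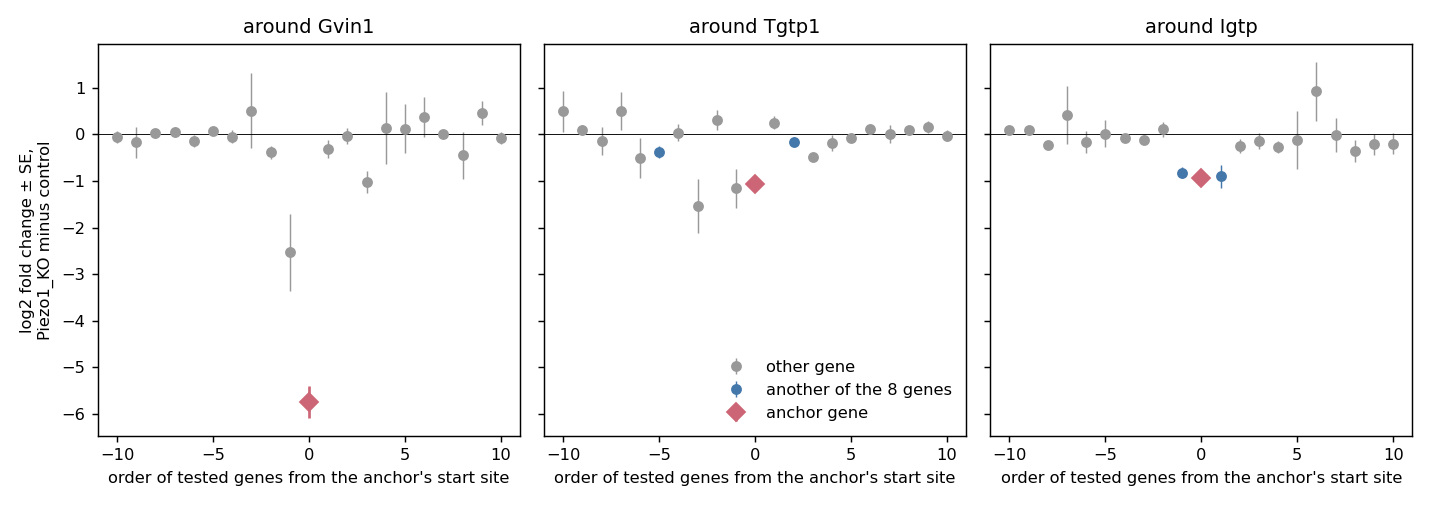
Log2 fold change with its SE (y axis, Piezo1_KO minus control) of the tested genes ordered by start site around Gvin1, Tgtp1 and Igtp (x axis, rank from the anchor gene; red diamond: anchor, blue: another of the 8 genes, grey: other genes). Gvin1 at −5.74 stands apart from its neighbours, of which Gm18853 and Gm1966 are the lowest, and Gm12250, Igtp and Irgm2 form a run of adjacent genes near −0.9.

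Profiles of log2 CPM over the 6 libraries, each centred on its mean, were compared by root mean square difference among 9031 other genes (minimum mean log2 CPM 3). Closest to the family sum were Gclc (0.068), Ptk2 (0.082), Enpp4 (0.083), Cd200r4 (0.085) and Serpinb9 (0.086). Gclc, the catalytic subunit of glutathione synthesis, went from 265 ± 22.4 to 162 ± 8.14 CPM (SD, n = 3). The closest to Gvin1 were Gbp6 (1.55), Upp1 (1.60), Ly6c1 (1.68), Kctd12 (1.79) and Gas7 (1.84). These differences were larger than those around the family sum, so no gene compared came as close to Gvin1. The measure depends largely on the size of the difference between groups, by which the 8 genes were chosen. A drop in the genes listed, Gclc among them, follows from that match and supports nothing. Before the logarithm 0.5 CPM was added, which is not small beside Gvin1 in Piezo1_KO (mean 1.05 CPM).

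Markers of other cell types gave no single direction. Granulocyte and mast cell markers (4 of 10 in the table) summed to 11.5 to 16.2 CPM in control and 4.02 to 5.39 CPM in Piezo1_KO. Cma1, Cpa3 and Tpsb2 were lower without overlap, while the granulocyte marker Ly6g overlapped between groups (means 0.124 and 0.194 CPM). NK cell and ILC1 markers (3 of 7) summed to 63.9 to 87.3 CPM in control and 40.2 to 59.8 CPM in Piezo1_KO. Gzma made up most of that sum, with means of 69.9 CPM in control and 46.1 CPM in Piezo1_KO. Tbx21 went from a mean of 1.29 CPM to 0 in all Piezo1_KO libraries. Prf1 moved the other way, from a mean of 2.26 to 3.75 CPM, with overlapping groups. B cell markers (3 of 7) summed to 34.4 to 40.3 CPM in control and 80.2 to 103.7 CPM in Piezo1_KO. Most of that rise was Ighm, from a mean of 18.6 to 64.9 CPM. Cd79b went from 17.9 to 23.9 CPM, and Cd79a was at 0.0517 and 0.103 CPM. Erythroid markers (3 of 6) summed to 3.70 to 5.25 and 26.7 to 31.3 CPM, mostly Hba-a1 (means 4.26 and 25.2 CPM). Hbb-bt overlapped between groups (0.218 and 0.256 CPM). T cell markers (5 of 9) summed to 41.4 to 47.7 and 58.8 to 66.5 CPM. The T cell markers moved unequally: Lck went from a mean of 13.2 to 37.6 CPM, while Cd3e and Cd3g, parts of the T cell receptor complex, were at 2.83 and 27.1 CPM in control and 1.20 and 21.7 CPM in Piezo1_KO. Epithelial markers (2 of 5) lay at 11.2 to 17.01 and 16.1 to 20.8 CPM, fibroblast markers (1 of 4) at no more than 0.209 and 0.342 CPM, and no endothelial marker was in the table. Dendritic cell markers (4 of 6) overlapped between groups, at 30.1 to 36.3 and 33.6 to 36.7 CPM, nearly all of it Xcr1 (means 33.0 and 34.6 CPM). The part of such cells in the levels of the IRG genes and Gvin1 was not tested.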

How the data were processed

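RNA-seq was done on 6 libraries of isolated lung ILC2s, 3 per genotype, grouped by the labels' genotype and numbered by their titles. The values are estimated counts that the authors deposited for each gene, with libraries as rows matched by the description in the labels. Depending on the library, 37.9% to 47.4% of its values were not whole (tolerance 1e-09). Per the submitters' processing notes, the genome build was mm10. For the aligner, counter, annotation and use of strand, nothing is given in the sources used here. Counts were rounded, filtered with filterByExpr (14149 of 18057 genes kept), scaled by TMM and tested with the edgeR 4.0.16 quasi-likelihood test (R 4.3.3), two-sided, without covariates, and p-values were adjusted by Benjamini-Hochberg over the genes tested. The procedure was tested on simulated data. DESeq2 1.42.0, limma-voom (limma 3.58.1), other scalings and filters, a replicate block and leaving out each library were alternatives. The lowest and highest totals, 13059046 and 33459904 counts, set the precision of low genes.

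The members and lists were chosen with earlier results of these data known. Every member, Piezo1 and up to 3 called genes per list (or the gene with the smallest p) were to be named. So were the 5 most similar profiles and called neighbours (10 on each side). Others, among them Gm4070, Gm8995, Ifngr1, Irf1, Irf9, Gm18853, Gm12185, the 9930111J21Rik genes, Ifng and the marker genes, were named after their values were seen. Positions, exon lengths and transcripts came from GENCODE M21 on GRCm38, for 17579 of 18057 symbols, and promoters from RefSeq on GRCm38.p6. No replicates agreed within sampling noise (chi-square per gene from 10.8 to 60.7). Of the called genes in the interferon signalling list, 1 is not reported here.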

Additional observations from a re-analysis of the deposited data

How the results depend on the processing

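All 8 genes had a negative log2 fold change in each of 13 alternative fits. Of the 8, 5 were called in the fit reported, 3 with the replicate block and 3 to 6 when a library was left out. In the fit reported 0.509% of all genes tested were called lower. The 8 genes were chosen for lower levels in these same libraries, so their signs and calls could hardly turn and support nothing. The family sum stayed between −0.76 and −0.61 (log2 ratio) when single libraries were left out, and was −0.55 without Gvin1 and, an alternative chosen after seeing the data, −0.99 without the Tgtp pair. The count of 214 genes called over the transcriptome was 594 with DESeq2, 439 with limma-voom, and 33 to 297 without single libraries (34 without control replicate 1, and 35, 33 and 53 without Piezo1_KO replicates 1, 2 and 3). The list of other IRG and Gvin genes (0 called) gave 1 with RLE size factors, 1 with the filter of at least 1 CPM, 2 with DESeq2, 2 with limma-voom and 0 to 1 without single libraries. The guanylate-binding proteins (5 called) gave 1 to 6 without single libraries. Interferon signalling genes (3 called) gave 6 with DESeq2, 5 with limma-voom and 1 to 4 without single libraries. Other interferon-inducible genes (1 called) gave 3 with DESeq2, 3 with limma-voom and 0 to 1 without single libraries. Genes of ATG8 conjugation and vacuole targeting (1 called) gave 3 with DESeq2 (1 higher, 2 lower) and 0 to 1 without single libraries. With the replicate number as a block, 52 genes were called. Among them were 1 guanylate-binding protein, 1 interferon signalling gene, 0 other interferon-inducible genes and 0 genes of ATG8 conjugation and vacuole targeting. Same-numbered libraries had correlations of deviations of −0.0057, −0.23 and −0.017, and libraries with unlike numbers ranged from −0.23 to 0.29. With 3 libraries per group these correlations cannot show whether the numbers pair the samples. The cause of the differences between fits was not tested, beyond fewer samples or degrees of freedom where a library was left out or the block added.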
